A study of Rattus norvegicus with 13 samples.

Results

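Ion channel subunits set the electrical activity of islet cells, and 64 microarray probes for 61 such genes were measured in rat islets given a virus for Nkx6.1, for Pdx1 or for beta-galactosidase. The probes were taken by gene symbol: potassium channel genes (Kcn), voltage-gated calcium channel genes (Cacna, Cacnb, Cacng) and sodium channel genes (Scn), with at least 2 values in each group of arrays. Before the condition on values there were 134 such probes for 109 genes, so 70 probes were not analysed here, and 17965 probes of all kinds met the same condition. The members comprised 19 probes for voltage-gated potassium pore subunits, 9 for accessory potassium subunits, 9 for inward rectifiers, 6 for two-pore-domain channels, 4 for potassium channels opened by calcium or sodium, 11 for calcium channel subunits, 3 for sodium pore subunits and 2 for the epithelial sodium channel. The remaining probe, Scnm1, shares the prefix of its symbol with the sodium channels but codes for a splicing protein, and its group means were 0.71, 0.41 and 0.91 under Nkx6.1, Pdx1 and bGAL.

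Islets were from male Sprague-Dawley rats of about 250 g, and about 200 islets per condition were kept in medium with 8 mM glucose and 10% serum. Nkx6.1 and Pdx1 are homeodomain transcription factors of the beta cell. The 5 Nkx6.1 arrays came from islets treated with an adenovirus that carried hamster Nkx6.1 (AdCMV-Nkx6.1), the 3 Pdx1 arrays from islets given mouse Pdx1 (AdCMV-Pdx1), and the 5 bGAL arrays from islets given the enzyme beta-galactosidase (AdCMV-bGAL). All 3 viruses used the cytomegalovirus promoter, which is active in many cell types, so the factor was not limited to beta cells, and the bGAL islets had received a virus too. Virus was present for 18 h and the islets were cultured for another 60 h. Each array was a separate islet isolation, whose RNA, 500 ng amplified over 2 rounds and labelled with Cy5, was hybridised beside a Cy3-labelled pool of rat RNA from other sources. Each value is therefore a ratio of islet over reference RNA, read here as log2, where 1 unit is a 2-fold change. The level of one gene cannot be set against that of another. In whole islets, fewer cells of a type and less RNA per cell cannot be told apart.

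In the beta cell, glucose metabolism closes ATP-sensitive potassium channels, the membrane depolarises, voltage-gated calcium channels open and the calcium that enters triggers insulin release. Voltage-gated and calcium-activated potassium channels end each action potential, two-pore-domain and inward rectifier channels set the resting potential, and sodium channels sharpen the spike in some islet cells. A channel is built from pore subunits, named alpha, and from accessory subunits that change how many channels reach the membrane and how fast they open and close.

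The arrays fell into 2 sets that were spread unevenly over the groups. On 5 arrays, here called the many-empty set, 35.4% to 61.1% of probes had no value: Nkx6.1 1 and bGAL 1, 2, 3 and 5, where the number is the replicate. On the other 8 arrays 0.23% to 15.5% were empty, and bGAL 4 was the one bGAL array among them. The many-empty set thus held 1 of 5 Nkx6.1 arrays, 0 of 3 Pdx1 arrays and 4 of 5 bGAL arrays. The many-empty arrays held a value for 23 (Nkx6.1 1), 37, 44, 28 and 61 (bGAL 1, 2, 3 and 5) of the 64 channel probes, and 19 channel probes had a value on all 13 arrays. Among the few-empty arrays Nkx6.1 2 stood apart, with correlations of 0.56 to 0.73 with the other 12 arrays over the probes measured on all of them and the widest spread (SD 2.14). The rat Nkx6-1 probe read 2.31 to 3.77 on the Nkx6.1 arrays, 2.51 to 3.51 on the Pdx1 arrays and 3.33 to 4.14 on the bGAL arrays. It was not higher with the Nkx6.1 virus, and whether it can detect hamster Nkx6.1 was not tested, so it does not check the labels. Probes of Pdx1 were not analysed here. Differences are given from the 3-group model, and after adjustment for array set (the set as a second factor of the model) where that alters them. Nkx6.1 1 had no value for 41 of the 64 channel probes. For those probes the adjusted differences from bGAL compare few-empty arrays with bGAL 4 alone, so they rest on 1 control array.

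One channel gene rose past the threshold: Kcnq5, under Pdx1. With limma and Benjamini-Hochberg adjustment over all 17965 probes, none of the 64 channel probes passed an adjusted p of 0.05 for Nkx6.1 minus bGAL, where 0.64% of all probes did. One channel probe passed for Pdx1 minus bGAL (0.546% of all probes), and none passed for Nkx6.1 minus Pdx1 (0.217% of all probes). At an unadjusted p under 0.05, 16 channel probes differed between Nkx6.1 and bGAL (25% of the members, against 14.4% of all probes), 15 of them lower under Nkx6.1 (9.2% of all probes). For Pdx1 minus bGAL there were 14 (21.9% against 11.9%), 12 of them lower under Pdx1 (7.78% of all probes), and for Nkx6.1 minus Pdx1 there were 4 (6.25% against 6.85%). The median difference over the channel probes was -0.25 for Nkx6.1 minus bGAL, -0.36 for Pdx1 minus bGAL and 0.06 for Nkx6.1 minus Pdx1, where the medians over all probes were -0.08, -0.10 and 0.02. After adjustment for array set the channel medians were 0.06, 0.10 and 0.03, and 4, 5 and 5 channel probes had an unadjusted p under 0.05 (5.96%, 4.29% and 7.28% of all probes), and by limma 0 passed the adjusted threshold in each (0.0724%, 0.117% and 0.245% of all probes). The lower medians of the channel probes under both factors were not present with the array set in the model. For the 41 probes empty on Nkx6.1 1, bGAL 4 was the only control array in that adjustment. The 2 comparisons with bGAL share the same 5 control arrays.

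**Figure D1:**
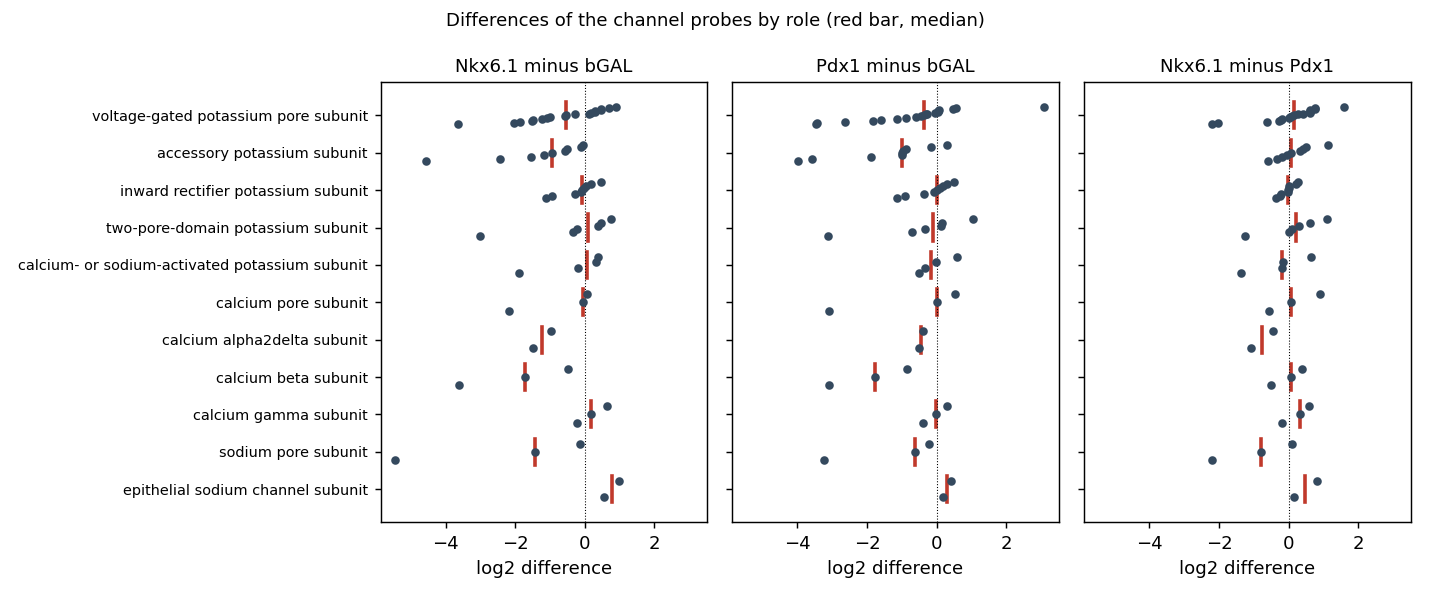
Log2 differences of the channel probes, in rows by role, for Nkx6.1 minus bGAL, Pdx1 minus bGAL and Nkx6.1 minus Pdx1, with 1 point per probe and a red bar at the median of the role. Some points lie far to the left in both comparisons with bGAL, down to -5.44 for Nkx6.1 and -3.98 for Pdx1. The comparison of the 2 factors spans -2.21 to 1.60.

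Kcnq5 codes for a voltage-gated potassium channel of the M-current type, which opens slowly near the resting potential and damps firing in neurons. The 3 Pdx1 arrays read -0.18, -0.51 and -0.62, and the 5 bGAL arrays read -3.42, -3.78, -1.86, -3.45 and -5.06. The 5 Nkx6.1 arrays read -1.47, -2.14, -2.95, -3.77 and -2.82. Every Pdx1 value lay above every value of both other groups, close to the level of the reference RNA, whereas the Nkx6.1 and bGAL values overlapped. Kcnq5 rose by 3.08 under Pdx1 against bGAL (SE 0.61, 8.43-fold, adjusted p = 0.0417). It was 0.89 higher under Nkx6.1 than under bGAL (adjusted p = 0.448), 0.50 without bGAL 5 and 0.37 after quantile normalization, and it was 2.19 lower under Nkx6.1 than under Pdx1 (SE 0.61, adjusted p = 0.304). The difference for Pdx1 minus bGAL was 3.63 after adjustment for array set and 3.02 within the few-empty arrays. All Pdx1 arrays were few-empty, so both values lean on bGAL 4, the lone control array there. The call did not hold in those fits (adjusted p = 0.214 and 0.295). It was also lost when any Pdx1 array was left out (adjusted p = 0.227, 0.188 and 0.192 without Pdx1 1, 2 and 3) and without Nkx6.1 3, 4 or 5 (0.0662, 0.0536 and 0.0753) or bGAL 1, 2 or 5 (0.0820, 0.0996 and 0.0655), while the difference stayed between 2.69 and 3.49. The 250 bases before the RefSeq start of Kcnq5 (GRCr8, chr9:31891282-31891531, minus strand) are shown because it is the one channel gene that passed the threshold, with each CG in capitals:
Kcnq5: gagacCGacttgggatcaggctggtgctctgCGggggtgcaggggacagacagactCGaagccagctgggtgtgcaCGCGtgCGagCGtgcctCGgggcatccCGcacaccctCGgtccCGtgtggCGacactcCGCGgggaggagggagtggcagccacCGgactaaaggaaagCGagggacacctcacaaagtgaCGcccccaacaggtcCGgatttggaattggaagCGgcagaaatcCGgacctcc
It held 20 CG and 65.2% G or C, and no TAAT on either strand, the core letters of many homeodomain sites.

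Kcnc2, a fast-closing delayed rectifier used by rapidly firing neurons, had 2 probes. On one, Rn30003626, the 4 Nkx6.1 arrays with a value read -0.061, 0.51, 0.23 and 0.35, the Pdx1 arrays 1.97, 2.64 and 2.26, and the bGAL arrays 2.28, 2.21, 2.74, 0.47 and 1.00. The Nkx6.1 values lay below all Pdx1 values, but bGAL 4 (0.47) fell among them. Kcnc2 was 2.03 lower under Nkx6.1 than under Pdx1 (SE 0.48), a 4.09-fold difference that missed the threshold over all 13 arrays (adjusted p = 0.197). It passed with only the arrays of those groups (adjusted p = 0.0456), within the few-empty arrays (0.0487) and after quantile normalization, where the difference was -2.65 (0.00401). Against bGAL the same probe was 1.48 lower under Nkx6.1 (adjusted p = 0.146), and 0.22 lower after adjustment for array set. The other probe, Rn30003625, did not repeat the pattern between the factors: it read -0.60, 1.50 and 1.97 on 3 Nkx6.1 arrays, -0.20, 1.70 and 1.98 on the Pdx1 arrays, and 2.29 and 6.92 on 2 bGAL arrays. The 2 probes of Kcnc2 therefore disagree. One RefSeq start of the gene (GRCr8, chr7:49587407-49587656, plus strand) is preceded by a window that differs from that of Kcnq5 in its base make-up, with 4 CG, 56.4% G or C and again no TAAT:
Kcnc2: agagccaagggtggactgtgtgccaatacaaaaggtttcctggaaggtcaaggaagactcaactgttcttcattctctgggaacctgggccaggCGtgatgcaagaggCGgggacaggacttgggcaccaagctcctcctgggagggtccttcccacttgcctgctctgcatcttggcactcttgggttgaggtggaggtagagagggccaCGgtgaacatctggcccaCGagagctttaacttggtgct

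**Figure D2:**
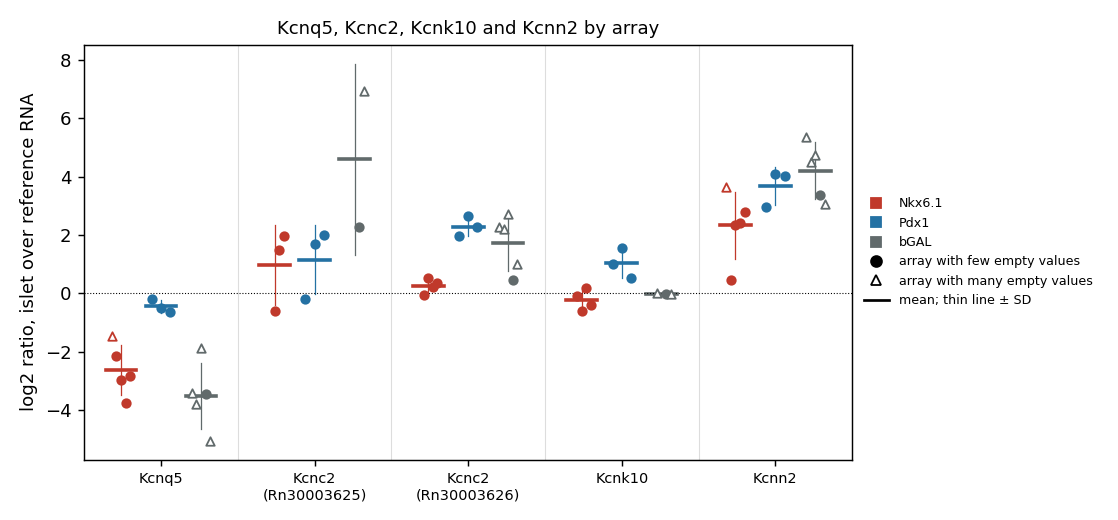
Log2 ratio of islet over reference RNA on each array for Kcnq5, both probes of Kcnc2, Kcnk10 and Kcnn2, in the order Nkx6.1, Pdx1 and bGAL, with open triangles for many-empty arrays, a bar at the mean and a thin line at ± SD. The 3 Pdx1 values of Kcnq5, from -0.62 to -0.18, stand above all others, and those of Kcnk10, from 0.54 to 1.54, likewise.

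Among the other voltage-gated potassium genes, none passed the threshold in any comparison. Kcnd1, a rapidly inactivating A-type channel, was lower under both factors without overlap: 0.31, -2.10, 0.28, 0.53 and 0.49 on the Nkx6.1 arrays and -0.11, 0.38 and 0.048 on the Pdx1 arrays, against 0.66, 0.99, 0.58, 1.11 and 1.55 on the bGAL arrays. The differences were -1.08 for Nkx6.1 minus bGAL (adjusted p = 0.288) and -0.87 for Pdx1 minus bGAL (adjusted p = 0.550), and they were -0.98 and -0.74 after adjustment for array set. Without Nkx6.1 2, the lowest array, the first came to -0.58.

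The ether-a-go-go family repolarises heart and islet cells. Kcnh6, which in human and mouse beta cells is tied to repolarisation after the spike, averaged 0.23 ± 0.92 (SD, n = 5) under Nkx6.1, 0.86 ± 0.33 (n = 3) under Pdx1 and 1.23 ± 0.54 (n = 5) under bGAL. Kcnh2, the cardiac rapid delayed rectifier, was 0.58 lower under Pdx1 than under bGAL without overlap (adjusted p = 0.519) and 0.081 lower after adjustment for array set. Kcnh4 was 0.69 higher under Nkx6.1 than under bGAL without overlap (adjusted p = 0.367), and 0.33 higher without Nkx6.1 2. Kcnh1 and Kcnh5 overlapped between all groups, with group means from -0.60 to 0.54.

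The Kcna genes, the Shaker-type channels, gave values near those of the reference for Kcna2, Kcna3 and Kcna6, with group means from -0.35 to 0.34 and no difference past the threshold. Kcnc1, the close relative of Kcnc2, had group means from -0.28 to 0.18. The silent subunits Kcng1, Kcng3, Kcng4 and Kcns3 do not form channels alone and change the gating of Kcnb pores. Kcng4 read 1.97, 0.65, 0.95 and 0.76 on 4 Nkx6.1 arrays, above the 0.28, 0.18 and 0.50 of the Pdx1 arrays (difference 0.76, adjusted p = 0.769, and 0.47 without Nkx6.1 2), while the 2 bGAL values, -0.10 and 1.32, spanned both. Kcng1 averaged 0.97 ± 0.86 (SD, n = 5) under Nkx6.1, 0.22 ± 0.06 (n = 3) under Pdx1 and 0.68 ± 0.47 (n = 4) under bGAL, with overlapping arrays.

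Two-pore-domain channels carry the background potassium current. Kcnk10, a channel opened by stretch and fatty acids, read 1.00, 1.54 and 0.54 on the Pdx1 arrays, above -0.10, -0.59, 0.19 and -0.41 on 4 Nkx6.1 arrays and above the 3 bGAL values of -0.0015, -0.026 and -0.026. It was 1.04 higher under Pdx1 than under bGAL (SE 0.32, adjusted p = 0.232) and 1.26 lower under Nkx6.1 than under Pdx1 (SE 0.30, adjusted p = 0.253). After adjustment for array set these were 1.05 and -1.26 (adjusted p = 0.999 and 0.298). The SD was 0.34 over the Nkx6.1 arrays and 0.014 over the bGAL arrays, where 1 of the 3 values lay within 0.01 of 0. The -0.10 of Kcnk10 on Nkx6.1 2 was also the value of Kcnip4 there. Likewise the -0.41 on Nkx6.1 5 was also that of Kcne2. Whether these values are particular to Kcnk10 was not tested.

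Kcnk3, the acid-sensitive background channel, was far above the reference on every array: 6.75, 9.95, 6.36, 5.88 and 6.66 on the Nkx6.1 arrays, 7.20, 6.12 and 6.21 on the Pdx1 arrays, and 6.79, 6.58, 6.32, 5.88 and 6.31 on the bGAL arrays. Nkx6.1 2 was the one array outside the 5.88 to 7.20 of all the others. Its relative Kcnk9 averaged 1.41 ± 1.20 (SD, n = 5) under Nkx6.1, 0.30 ± 0.46 (n = 3) under Pdx1 and 1.01 ± 0.70 (n = 5) under bGAL, and the Nkx6.1 mean again held a high value on Nkx6.1 2 (3.47). Kcnk6 and the stretch-sensitive Kcnk2 overlapped between all groups, with group means from -0.092 to 0.78.

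Calcium-activated potassium channels follow each burst of calcium entry. Kcnn2, of the small-conductance type, read 3.63, 0.47, 2.36, 2.40 and 2.79 on the Nkx6.1 arrays, 2.95, 4.09 and 4.03 on the Pdx1 arrays, and 5.38, 4.51, 4.73, 3.36 and 3.05 on the bGAL arrays. Nkx6.1 1, from the many-empty set, was the one Nkx6.1 array within the bGAL range. Kcnn2 was 1.88 lower under Nkx6.1 than under bGAL (SE 0.57, 3.67-fold, adjusted p = 0.168), 1.07 lower after adjustment for array set (adjusted p = 0.949) 1.41 lower without Nkx6.1 2 and 0.61 lower after quantile normalization. Against Pdx1 it was 1.36 lower under Nkx6.1 (adjusted p = 0.728), 0.89 lower without Nkx6.1 2 and 1.63 lower after the adjustment. Kcnn1, of the same type, and Kcnt1, opened by sodium, overlapped between all groups. Kcnn4, the intermediate-conductance channel of blood and epithelial cells, was below the reference in islets, at -2.38 ± 1.48 (SD, n = 5) under Nkx6.1, -3.04 ± 0.27 (n = 3) under Pdx1 and -2.70 ± 1.07 (n = 5) under bGAL.

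Inward rectifiers hold the membrane near the potassium potential. Kcnj8, the pore of the vascular ATP-sensitive channel, read 4.87, 5.95, 4.81, 4.18 and 4.59 on the Nkx6.1 arrays, 4.90, 4.50 and 4.46 on the Pdx1 arrays, and 5.05, 5.43, 4.71, 4.73 and 4.97 on the bGAL arrays. The groups overlapped and their means of 4.88, 4.62 and 4.98 lay within the spread of the arrays. Kcnj3, a pore opened by G-protein-coupled receptors, averaged 2.45 ± 0.99 (SD, n = 5) under Nkx6.1, 2.48 ± 0.43 (n = 3) under Pdx1 and 1.99 ± 0.60 (n = 5) under bGAL. Kcnj13 averaged 1.84 ± 1.19 (n = 5), 2.06 ± 1.17 (n = 3) and 2.96 ± 0.72 (n = 5) in the same order.

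Kcnj2, a strong rectifier of heart and muscle, had a lower mean under both factors, although with 2 bGAL arrays. It read -0.048, 0.473, 0.038 and 0.12 on 4 Nkx6.1 arrays and -0.35, -0.035 and 0.16 on the Pdx1 arrays. The bGAL values were 1.69 on bGAL 4 and 0.468 on bGAL 5, so Nkx6.1 and bGAL overlapped and Pdx1 and bGAL did not. The difference was -0.93 for Nkx6.1 minus bGAL (adjusted p = 0.300) and -1.15 for Pdx1 minus bGAL (adjusted p = 0.296). After adjustment for array set they were -1.54 and -1.76 (adjusted p = 0.409 and 0.403), each resting on bGAL 4 as the control. Kcnj4, Kcnj12, Kcnj14 and Kcnj16 gave group means from -0.23 to 0.57, and Kcnj9, another G-protein-gated pore, from -0.59 to -0.51, with overlap in every comparison.

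Accessory potassium subunits are proteins that bind to pores. Kcnab1, a beta subunit that speeds inactivation of Shaker-type channels, read -1.71, -1.97, -2.80 and -1.88 on 4 Nkx6.1 arrays, -1.72, -1.87 and -2.09 on the Pdx1 arrays, and -0.72, -0.12, -1.81 and -1.05 on the bGAL arrays. The bGAL value inside the range of the factors, -1.81, was that of bGAL 4. The differences from bGAL were -1.16 for Nkx6.1 (adjusted p = 0.190) and -0.97 for Pdx1 (adjusted p = 0.358), and -0.27 and -0.078 after adjustment for array set.

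Kcnmb4, the beta subunit of large-conductance channels in neurons, was lowest under Pdx1, at -1.14, -1.83 and -1.06, against -0.22, -0.11 and -0.69 on 3 bGAL arrays (difference -1.002, SE 0.29, adjusted p = 0.218). It was -0.65 after adjustment for array set. The 4 Nkx6.1 values, from -1.02 to -0.61, lay above the Pdx1 values (difference 0.49, adjusted p = 0.769, and 0.25 without Pdx1 2). Kcnab2 was 1.00 lower under Pdx1 than under bGAL without overlap (adjusted p = 0.433), 0.73 lower after adjustment for array set and 0.64 lower without bGAL 5. Kcne2 and the potassium channel-interacting proteins Kcnip3 and Kcnip4 overlapped between all groups, with group means from -0.43 to 1.80.

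For calcium channels, the alpha2delta subunit Cacna2d1, which brings channels to the membrane, had 2 probes, and one of them turned direction with the normalization. Probe Rn30021949 read 2.17, -1.13, 1.58, 1.48 and 1.53 on the Nkx6.1 arrays, 1.58, 2.41 and 2.60 on the Pdx1 arrays, and 3.35, 2.72, 3.08, 2.20 and 1.64 on the bGAL arrays. Probe Rn30021950 averaged 2.28 ± 1.01 (SD, n = 5) under Nkx6.1, 2.73 ± 0.17 (n = 3) under Pdx1 and 3.25 ± 0.44 (n = 5) under bGAL. The differences for Nkx6.1 minus bGAL were -1.47 (adjusted p = 0.239) and -0.98 (adjusted p = 0.299), with overlap, and they were -0.91 and -0.54 without Nkx6.1 2, which was the lowest array on both probes. After adjustment for array set they were -0.94 and -0.84, and after quantile normalization -0.73 and 0.069.

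Pore subunits of calcium channels were represented by 3 genes. Cacna1c, the L-type pore that couples depolarisation to secretion, read 0.075, 0.32, -0.96 and 0.50 on 4 Nkx6.1 arrays, 0.36, 0.56 and 0.71 on the Pdx1 arrays, and 0.056 and -0.0024 on 2 bGAL arrays. The Pdx1 values lay above both bGAL values (difference 0.52, adjusted p = 0.717). Cacna1g, the low-threshold T-type pore, averaged -0.077, -0.14 and -0.14 under Nkx6.1, Pdx1 and bGAL. Of the beta subunits, which carry the pore to the membrane, Cacnb3 averaged 1.53 ± 1.12 (SD, n = 4) under Nkx6.1, 1.16 ± 0.65 (n = 3) under Pdx1 and 2.02 ± 0.75 (n = 3) under bGAL. The gamma subunit of skeletal muscle, Cacng1, was 0.57 higher under Nkx6.1 than under Pdx1 without overlap (adjusted p = 0.769), and 0.27 higher without Nkx6.1 2. The 2 probes of Cacng6 differed in level, with bGAL means of -0.18 and -0.81.

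Among sodium channels, Scn7a, an atypical sodium-sensing member, read -0.69, -0.95, 0.032 and -1.01 on 4 Nkx6.1 arrays, -0.19, 0.20 and 0.44 on the Pdx1 arrays, and 2.14, -0.13 and 0.36 on 3 bGAL arrays. It was 1.44 lower under Nkx6.1 than under bGAL (adjusted p = 0.232), 0.77 lower without bGAL 2 and 0.52 lower after adjustment for array set. Scn2a, a pore of central neurons, overlapped between all groups. The epithelial sodium channel takes up sodium in kidney and lung, and its beta subunit Scnn1b read 1.76, 0.52, 0.89 and 0.76 on 4 Nkx6.1 arrays, above 0.24, -0.046 and 0.31 on the Pdx1 arrays and 0.020 and -0.020 on 2 bGAL arrays. Scnn1b was 0.98 higher under Nkx6.1 than under bGAL (SE 0.36, adjusted p = 0.263) and 0.82 higher than under Pdx1 (adjusted p = 0.682), and the first was 0.96 after adjustment for array set. The alpha subunit Scnn1a averaged 1.27 ± 1.03 (SD, n = 5) under Nkx6.1, 1.13 ± 0.23 (n = 3) under Pdx1 and 0.72 ± 0.20 (n = 5) under bGAL, with a value of 3.08 on Nkx6.1 2 and overlap between all groups.

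Over all 64 probes, the values of Nkx6.1 and bGAL did not overlap for 5 (7.73% of all probes did not), those of Pdx1 and bGAL for 13 (19.5%) and those of Nkx6.1 and Pdx1 for 9 (12.1%). The members' shares, 7.81%, 20.3% and 14.1%, were near those of all probes.

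The widest differences from bGAL belonged to channel probes that were high on many-empty arrays of the control group. The sodium pore Scn9a, of sensory neurons and islets, read 1.99, 2.54 and 2.57 on 3 Nkx6.1 arrays and 4.97, 4.11 and 4.64 on the Pdx1 arrays, against 9.41, 10.16, 11.58, 2.29 and 5.61 on the bGAL arrays. The bGAL array with few empty values, at 2.29, read far below the other 4 and within the Nkx6.1 range. Scn9a was 5.44 lower under Nkx6.1 than under bGAL (adjusted p = 0.186) and 0.075 higher after adjustment for array set, and the difference for Pdx1 minus bGAL was -3.23 (adjusted p = 0.490), and 2.28 after the adjustment. Between the factors, whose values it had on few-empty arrays alone, it was 2.21 lower under Nkx6.1 than under Pdx1 without overlap (adjusted p = 0.783).

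The beta subunit Cacnb2 read 0.70, 1.52, 1.65 and 1.21 on 4 Nkx6.1 arrays, 1.55, 2.04 and 1.75 on the Pdx1 arrays, and 6.64, 6.14, 1.80 and 4.96 on the bGAL arrays, the 1.80 being that of bGAL 4. The difference was -3.62 for Nkx6.1 minus bGAL (SE 0.83, adjusted p = 0.0877) and -0.53 after adjustment for array set, and for Pdx1 minus bGAL it was -3.11 (adjusted p = 0.207) and -0.024. Kcnip1, a calcium-binding partner of A-type channels, read 2.44, 3.07, 1.22 and 2.40 on 4 Nkx6.1 arrays and 3.10, 2.24 and 3.31 on the Pdx1 arrays, against 7.61, 9.32, 2.51 and 7.99 on 4 bGAL arrays. It again had the bGAL 4 value, 2.51, among those of the factors.

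Kcne3 and Kcns3 were high on the many-empty Nkx6.1 array too. Kcne3, which keeps potassium channels open in epithelia, gave 9.51 on Nkx6.1 1, with 2.57 to 3.77 on Nkx6.1 2 to 5, 2.55 to 3.82 on the Pdx1 arrays, and 7.60, 9.50, 9.77 and 4.79 on the many-empty bGAL arrays against 2.86 on bGAL 4. Kcns3 gave 7.17 on that array, with 2.61 to 4.47 on Nkx6.1 2 to 5. The many-empty bGAL arrays gave 6.34, 9.31, 4.00 and 8.51 for Kcns3, against 2.96 on bGAL 4. Of these, bGAL 3 (4.00) lay within the range of Nkx6.1 2 to 5. Kcnmb2 read 5.24 on Nkx6.1 1 and 1.21 to 2.82 on Nkx6.1 2 to 5. Kcnk12 differed: Nkx6.1 1 read 4.00, inside the 2.56 to 5.39 of Nkx6.1 2 to 5. Its mean over the many-empty bGAL arrays was nevertheless 4.13 above bGAL 4. The split thus ran with the array set within both groups for some probes and not for Kcnk12. Within Nkx6.1 this rests on Nkx6.1 1 alone, which had no value for Scn9a, Kcnip1 or Cacnb2.

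Of the 64 channel probes, 13 (20.3%) had a mean over the many-empty bGAL arrays more than 2 above bGAL 4, against 4.66% of all probes, and none was more than 2 below it. Besides Scn9a, Kcnip1, Cacnb2 and Kcne3, the 13 were Kcng3, Kcnc2 (Rn30003625), Cacna1b, Kcnk12, Kcnmb2, Cacnb1, Kcnh8, Kcna4 and Kcns3. The gaps of these 9 were 2.11 to 5.02. Median gaps were 0.54 over the channel probes and 0.095 over all probes. Several of the high values equalled log2 of the square of a whole number to within 0.0001: 6.64 of Cacnb2 on bGAL 1 is that of 100, 7.61 of Kcnip1 on bGAL 1 that of 196, 5.61 of Scn9a on bGAL 5 that of 49, and 4.00 of Kcna4, Kcns3 and Cacnb1 on bGAL 3 that of 16. Over all probes, such squares made up 5.51% to 24.6% of the values above 3 on the many-empty arrays and 0% to 0.282% on the others. Cacna1b, the N-type calcium pore, and the silent subunit Kcng3 held the same value, to within 1e-06, on 7 of the 9 arrays where both were measured, although they are different genes. Among the 7, bGAL 3 (5.17) was the sole many-empty array. Repeated values were common on every array. Over all probes, 25.5% to 33.2% of values on few-empty arrays equalled that of another probe, and 12.7% to 22.4% on many-empty arrays. The origin of these values was not tested.

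**Figure D3:**
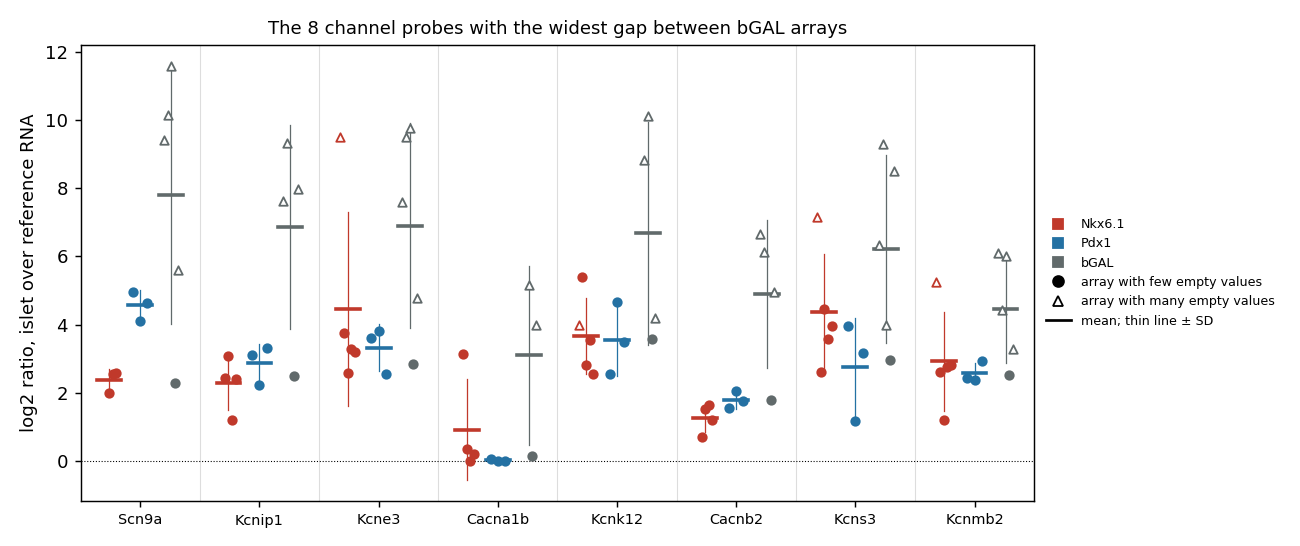
Log2 ratio on each array for the 8 channel probes with the widest gap between the mean of the many-empty bGAL arrays and bGAL 4, of those with at least 2 such arrays; open triangles are many-empty arrays and filled circles few-empty arrays. The filled bGAL circle lies close to the filled Nkx6.1 circles, at 2.29 for Scn9a, 2.51 for Kcnip1 and 1.80 for Cacnb2, and the bGAL triangles lie above it.

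More probes were called without bGAL 4, channel probes among them. Without that array 46 channel probes and 14638 probes of all kinds had enough values. Of the 46, 6 passed for Nkx6.1 minus bGAL: Cacna1b, Cacnb2, Kcnab1, Kcnc2 (Rn30003626), Kcnip1 and Scn9a. This is 13% against 4.06% of all probes, and no channel probe passed with that array. For Pdx1 minus bGAL 4 of the 46 passed without it (Cacna1b, Cacnb2, Kcnip1 and Kcnq5), 8.7% against 2.95% of all probes, and all but Kcnq5 were probes that read high on the many-empty bGAL arrays.

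**Figure D4:**
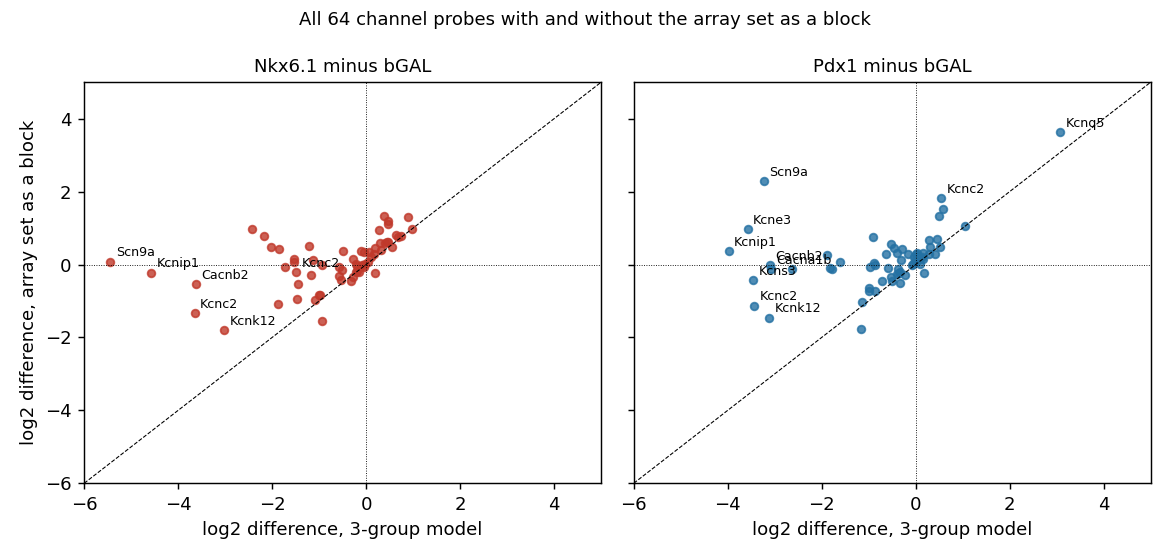
Log2 difference of each of the 64 channel probes in the 3-group model (horizontal) and after adjustment for array set (vertical), for Nkx6.1 minus bGAL and Pdx1 minus bGAL; the dashed line marks equal values. In the Nkx6.1 panel Scn9a, Kcnip1 and Cacnb2 lie far left and near 0 vertically, while Kcnq5 lies at 3.08 and 3.63 in the Pdx1 panel.

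Against the reference pool, islets given the control virus read above 1 for 27 of the 64 channel probes, below -1 for 2 and within 1 of it for 35. Some probes had a value on every bGAL array and a many-empty bGAL mean no more than 2 above bGAL 4. Of these, Kcnk3 (6.38 ± 0.34, SD, n = 5), Kcnj8 (4.98 ± 0.29), Kcnn2 (4.21 ± 0.97), Cacna2d1 (3.25 ± 0.44 and 2.60 ± 0.69) and Kcnj13 (2.96 ± 0.72) were high in islets. Kcnj13 was still higher on the many-empty bGAL arrays, by 1.57 over bGAL 4, and Kcnn2 by 1.06. On Nkx6.1 1 Kcnj13 read 3.89, against 0.88 to 1.65 on Nkx6.1 2 to 5. Kcnq5 (-3.51 ± 1.14) and Kcnn4 (-2.70 ± 1.07) were the 2 below -1. These ratios hold for islets relative to the reference tissues and set no order of abundance between genes.

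**Figure D5:**
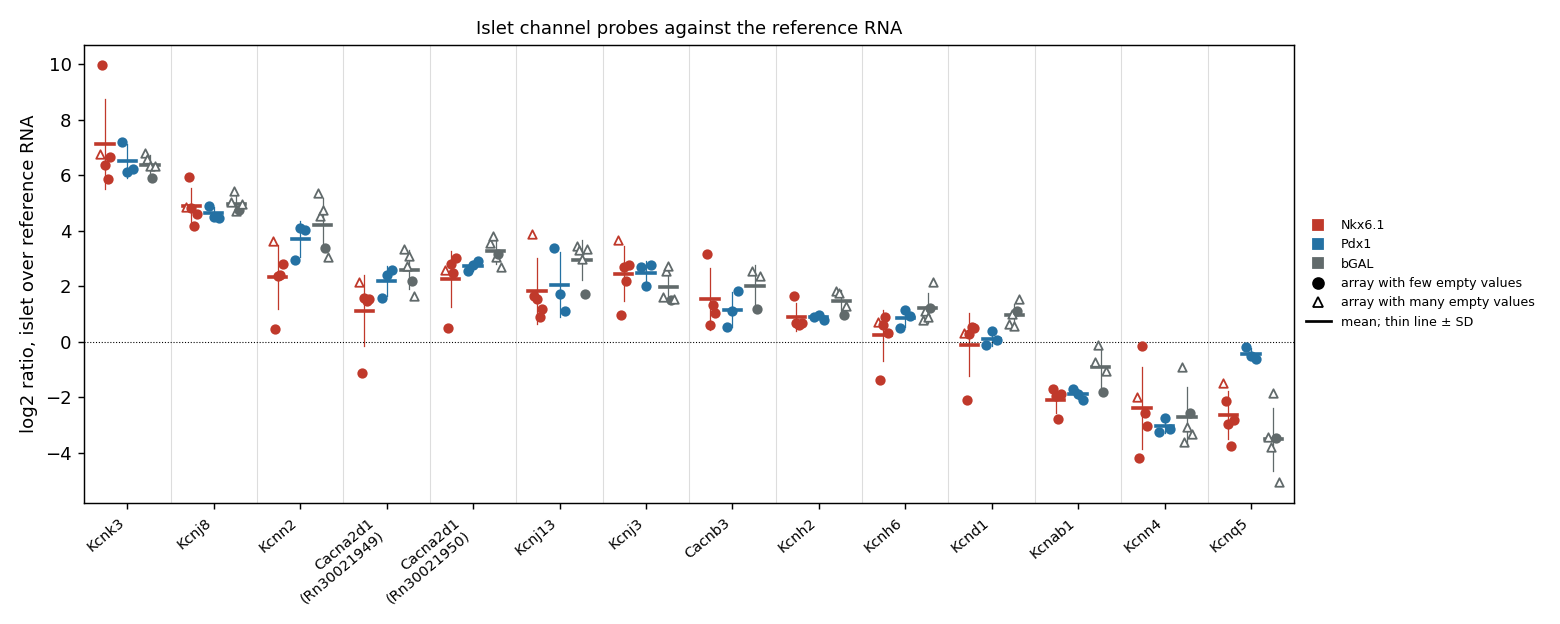
Log2 ratio of islet over reference RNA on each array for 13 channel genes, in the order Nkx6.1, Pdx1 and bGAL within each, with the mean and ± SD; the dotted line at 0 marks equal signal in islet and reference RNA. Kcnk3 and Kcnj8 lie above 4 on every array and Kcnn4 below 0 on every array, while Kcnq5 lies well below 0 on all but the Pdx1 arrays.

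Genes of ion handling outside the channel families, among them calcium pumps, release channels, exchangers, transient receptor potential channels and calmodulins, gave no call either. Of 54 listed genes 36 were measured, with 44 probes, and by limma 0 passed in each comparison, while 11, 10 and 10 probes had an unadjusted p under 0.05 for Nkx6.1 minus bGAL, Pdx1 minus bGAL and Nkx6.1 minus Pdx1. These are 25%, 22.7% and 22.7% of the 44, where all probes had 14.4%, 11.9% and 6.85%. After adjustment for array set the counts were 6, 4 and 11 of the 44, where all probes had 5.96%, 4.29% and 7.28%. Each share stayed above that of all probes, and the count for Nkx6.1 minus Pdx1 did not fall with the adjustment.

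Markers of islet cell types moved in one list. Of 3 delta-cell markers, all measured, Rbp4 fell by 2.84 and Hhex by 1.65 under Nkx6.1 against bGAL (adjusted p = 0.00148 and 0.00406). With the set in the model the differences were -2.997 for Rbp4 (adjusted p = 0.0115) and -1.54 for Hhex, whose call was lost (adjusted p = 0.0691). Sst was 1.09 lower (adjusted p = 0.417). The mean of the 3 was 0.29 to 1.78 on the Nkx6.1 arrays, 2.41 to 3.14 on the Pdx1 arrays and 2.34 to 2.64 on the bGAL arrays, so the Nkx6.1 arrays lay below all others. Its part in the channel differences was not tested. Of the beta-cell markers 5 of 8 were measured and none was called, with array means of 4.39 to 6.38 under Nkx6.1, 4.50 to 5.14 under Pdx1 and 4.29 to 4.99 under bGAL. Of the neuron markers, relevant because many channel genes are neuronal, 7 of 9 were measured and by limma 0 were called in each comparison, with 2, 3 and 1 of 8 probes at an unadjusted p under 0.05 for Nkx6.1 minus bGAL, Pdx1 minus bGAL and Nkx6.1 minus Pdx1 (14.4%, 11.9% and 6.85% of all probes). For Nkx6.1 minus bGAL these were Nefm, at -4.49 and at -3.12 after adjustment for array set, and one Snap25 probe, at -3.68 and at 0.36 after it. The other Snap25 probe was at -0.24 and at 0.18.

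RefSeq windows of 250 bases before the start were matched for 42 of the 61 genes, 50 windows in all. Of these, 18 (36.0%) held TAAT on either strand, against 57.0% of 33469 windows of all genes, and none held TAATTA, which includes TAAT, against 4.86%. At least 10 CG were present in 29 (58.0%), against 35.9%, with medians of 13 and 5. The 20 CG of the Kcnq5 window lie above the channel median and the 4 of Kcnc2 below it, and the letters of a window say nothing of whether either factor binds there.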

How the data were processed

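Rat islet RNA labelled with Cy5 and reference RNA labelled with Cy3 were hybridised to Operon rat 27K oligonucleotide arrays, per the labels' protocols. The authors deposited 1 value per probe and array, read here as a log2 ratio of islet over reference. The unit, its direction and its base are not stated there. Direction follows from the dyes in the labels. Base 2 was taken from values that equal log2 of 4, 9 and 16 many times over, mostly on the many-empty arrays. These values are also whole numbers on a scale with 2 units per 2-fold change. The base was therefore assumed, and the fold changes given rest on it. How background was corrected, how arrays were normalized and why some values are empty is not stated in the labels. Of 26984 probes 22 control spots were left out, and a probe was kept when each group held 2 or more values (17965 probes).

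Gene names are those of the platform annotation, with 1 member symbol updated. Groups were compared in 1 limma model over all 13 arrays (limma 3.58.1 in R 4.3.3), tested two-sided with Benjamini-Hochberg adjustment over all 17965 probes at 0.05. The model had been run first on simulated data. These had independent noise with 1 spread per probe and no difference between array sets, so they do not show how the model performs with such sets. The number of arrays limits the precision. Alternatives changed the centring, scaling, filter, variance prior, arrays fitted, array set (over 30% of probes empty) and replicates, and each array was left out in turn. Genes named are those called, up to 8 rises and 8 falls per comparison without overlap, a list of islet channel genes (24 of 48 measured), the 5 highest and 5 lowest bGAL means, and all probes of those genes, 41 genes in all. Other members are given by range or count, and the per-array values of some were chosen after they were seen. The members and lists were chosen with earlier results of these data known. Promoter windows are from RefSeq (GRCr8). One potassium channel gene is not reported here.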

Additional observations from a re-analysis of the deposited data

Results flagged for a closer look

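In groups of 4 or 5 arrays, a highest or lowest value that lay far from the rest by Dixon's 95% criterion was found in 14 of 64 groups of named channel probes, and chance gives about 1 in 20. Of the 14, 11 were on Nkx6.1 2, the array that stood apart from the others over all probes. There the potassium channel probes Kcnk3 (9.95), Kcna2 (0.98), Kcnh2 (1.64), Kcnh4 (1.77) and Kcnh8 (2.55) and the calcium channel probes Cacng1 (1.86) and Cacna1b (3.13) were high among the Nkx6.1 arrays. Kcnd1 (-2.10), Kcnh6 (-1.38) and both probes of Cacna2d1 (-1.13 and 0.51) were low there. The other 3 were Kcne3 on Nkx6.1 1 (9.51, with the others between 2.57 and 3.77), Kcnn1 on Nkx6.1 3 (0.066, with the others between -0.48 and -0.43) and Scnm1 on bGAL 5 (1.57, with the others between 0.67 and 0.83).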

How the results depend on the processing

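Over 27 differences of named probes that were called or did not overlap, 642 of 664 alternative values kept their direction and side of the threshold. Of the rest, 16 lost a call, all for Kcnq5, and 5 gained one. The 27 were picked from these same data, and leaving out an array cannot turn a difference whose groups do not overlap. All but Kcnq5 for Pdx1 minus bGAL began without a call. The count of kept values therefore does not measure how stable the differences were, and their sizes could shrink within it. Scn9a for Nkx6.1 minus Pdx1 turned to 0.60 with a replicate block, and Kcnab2 for Pdx1 minus bGAL came to -0.38. Same-numbered arrays had deviations from the group means that correlated at -0.24 to 0.47, and differently numbered arrays at -0.53 to 0.45. These overlapping ranges do not settle whether samples were paired, and the numbers were not taken to pair them. With the replicate block the channel medians were -0.45 for Pdx1 minus bGAL and 0.28 for Nkx6.1 minus Pdx1, and 0 probes were called for Pdx1 minus bGAL. The Pdx1 minus bGAL count, 1, was also 0 after adjustment for array set, arrays scaled to one spread, at least 1 value per group, the compared groups alone, quantile normalization, and within the few-empty arrays. The Nkx6.1 minus Pdx1 count, 0, was 1 (Kcnc2) with the compared groups alone, quantile normalization and within the few-empty arrays. The median for Nkx6.1 minus bGAL was 0.059 after adjustment for array set, 0.076 and 0.0075 within the few-empty and many-empty arrays, and -0.50 with values within 0.01 of 0 taken as empty. For Pdx1 minus bGAL it was 0.10 after that adjustment, 0.10 within the few-empty arrays, -0.18 with scaling, -0.084 with quantile normalization and -0.48 without values near 0. Leaving out each array in turn gave 0 to 6, 0 to 4 and 0 calls and medians of -0.70 to -0.22, -0.64 to -0.31 and -0.027 to 0.11 for Nkx6.1 minus bGAL, Pdx1 minus bGAL and Nkx6.1 minus Pdx1, and the most calls came without bGAL 4. The reasons for these shifts were not tested.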

Other observations

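Some channel probes had values within 0.01 of 0, in a number that varied by array. On bGAL 5, 9 of the 61 channel values lay within 0.01 of 0, and on bGAL 2, 5 of 44 did, against none of 64 on bGAL 4. For Scnn1a, Kcnk6 and Cacng1, which had a value on every array, no bGAL value was that close to 0.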
